A study of Mus musculus with 19 samples.

Results

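Otx2, Fgf5, Pou3f1, Lef1, Sox3 and Zic2 are 6 genes that mark the formative and primed states of pluripotent mouse cells. They were taken by name, and 5 of the 6 had a row among the 12778 genes of the deposited expression matrix. Fgf5 had none. The cells were mouse embryonic stem cells (ESC) and induced pluripotent stem cells (iPSC), the latter reprogrammed from embryonic fibroblasts by the factors Oct4, Sox2 and Klf4. They were wild type (WT), knockout (KO) for the miR-290 cluster, KO for the miR-302 cluster, or KO for both clusters (double KO), and all were grown in medium with LIF and serum. WT iPSC had 3 libraries. Each of the 3 KO iPSC genotypes had 2 colonies with 2 libraries each, and miR-290 KO ESC and miR-302 KO ESC had 2 libraries each. The iPSC had gone through over 18 passages since they were reprogrammed. The series description excepts the WT iPSC from independent derivation, so the WT libraries may come from a single derivation, and p-values then measure only the spread between these samples. The titles of the ESC libraries name no colony, and each ESC library was counted as a sample. If they are repeat libraries of a single line, their SDs and tests measure only the spread between libraries. WT ESC and double KO ESC were not analysed here.

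Mouse pluripotent cells pass through a sequence of states. Naive cells resemble the epiblast before implantation, formative cells the epiblast just after it, and primed cells the later epiblast that is about to gastrulate. On leaving the naive state, cells lose naive factors such as Klf4, Esrrb and Tfcp2l1 and turn on Otx2, Pou3f1 and Fgf5, while Oct4 (Pou5f1) and Sox2 stay on. LIF and serum hold most cells near the naive state, with some cells further along, so the formative and primed genes are usually low but present. The miR-290 and miR-302 clusters encode microRNAs that dominate the small RNA of early embryonic cells, miR-290 in naive cells and miR-302 from the formative state on.

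Several of the microRNAs removed by the 2 deletions carry a shared seed, the bases that pair with target messages. The mature sequences are from RefSeq (GRCm38.p6) and are shown because the 2 deleted clusters have these bases in common. Capitals mark bases 2 to 8, counted from the 5′ end, and the 5 microRNAs shown, 3 of the miR-290 cluster and 2 of the miR-302 cluster, have AAGUGCU there. They are the microRNAs with this seed in the table used here.
miR-291a-3p: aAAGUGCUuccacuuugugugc
miR-294-3p: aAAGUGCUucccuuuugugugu
miR-295-3p: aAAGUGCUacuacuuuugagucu
miR-302b-3p: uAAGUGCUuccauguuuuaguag
miR-302d-3p: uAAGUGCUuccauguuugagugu
The miR-290 cluster lies on chromosome 7 (chr7:3218638-3220837, GRCm38) and the miR-302 cluster on chromosome 3 (chr3:127545275-127545800). Lef1 is on the same chromosome as the miR-302 cluster, 3.56 Mb away. The other 5 genes are on other chromosomes.

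The 7-base match to this seed, AGCACTT, was looked for in the longest annotated 3′ untranslated region of each gene (GENCODE vM21, GRCm38). Lef1 had 1 match and the other 5 genes had 0. Of the 11835 genes of the matrix with such a region, 17.4% had at least 1 match, so 1 gene of 6 is close to the share of all genes. The match in Lef1 is at chr3:131224078-131224084, + strand, and is shown in capitals with its neighbouring bases.
Lef1 3′ untranslated region: gtaaaaagcccAGCACTTgaattgttctt

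Libraries ranged from 6433259 to 24980302 recovered reads, with a median of 17461994. Levels are in CPM, the reads of a gene scaled to 1000000 reads of its library, each read counting 1 transcript 3′ end. In the miR-302 KO iPSC, library 2 of colony 1 stood apart from the others, with a mean correlation across genes of 0.852 with the other libraries of the group, against 0.904 or more in every other library. Results that rest on it are given with and without it. No row of the matrix names a microRNA of either cluster, so the deletions were not checked here. The 8 markers of pluripotent cells (Pou5f1, Sox2, Nanog, Zfp42, Esrrb, Utf1, Fgf4 and Tdgf1) summed to between 2610 and 3840 CPM in every sample of the other 5 groups. They summed to 203 and 294 CPM in the 2 colonies of the double KO. All 8 were lower there than in WT (limma, adjusted p under 0.05), where 21.5% of all genes were. Fgf4 fell the least, from a mean of 276 CPM in WT to 177. Means of the others in the double KO ran from 0.108 CPM in Utf1 to 35.3 in Sox2. The double KO cells are labelled iPSC, and the level of these markers, apart from Fgf4, goes against that label. Bulk libraries cannot tell fewer cells of a type from less RNA per cell.

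In the double KO iPSC, 4 of the 5 measured genes (Otx2, Pou3f1, Sox3 and Zic2) fell against WT and Lef1 did not pass the test. Mean levels of the 4 were 94.2, 65.0, 13.1 and 6.14 times higher in WT. These ratios differed between the 2 double KO colonies, and those of Otx2, Pou3f1 and Sox3 rest on few reads. Taken against each colony alone they were 59.8 and 222 for Otx2, 40.4 and 165 for Pou3f1, 7.06 and 95.2 for Sox3 and 3.98 and 13.4 for Zic2. The libraries of colony 1 had 0 and 3 reads of Otx2, 2 and 1 of Pou3f1 and 21 and 4 of Sox3. Those of colony 2 had 1 and 0 reads of Otx2, 12 and 2 of Pou3f1 and 0 and 2 of Sox3. No counting interval was computed for these ratios, and their difference between colonies was not tested. Over all 12778 genes, 21.5% were called lower and 27.4% higher in this comparison, so a call alone is common here. Of all calls, 56% were higher, a share that came to 44% with median-of-ratios scaling. The median log2 fold change was −3.80 over the 5 genes and 0.16 over all genes. Calls are at an adjusted p under 0.05 from limma with Benjamini-Hochberg adjustment over all genes, with colonies as samples for the KO iPSC. Median-of-ratios scaling shifted every log2 fold change of this comparison by −0.25 and changed none of the 5 calls. For genes with few reads the size of a fitted fold change depends on the small number added before the logarithm. With 1 CPM added, Otx2 had −2.67, Pou3f1 −3.79, Sox3 −2.24 and Zic2 −2.78, all still called.

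**Figure D1:**
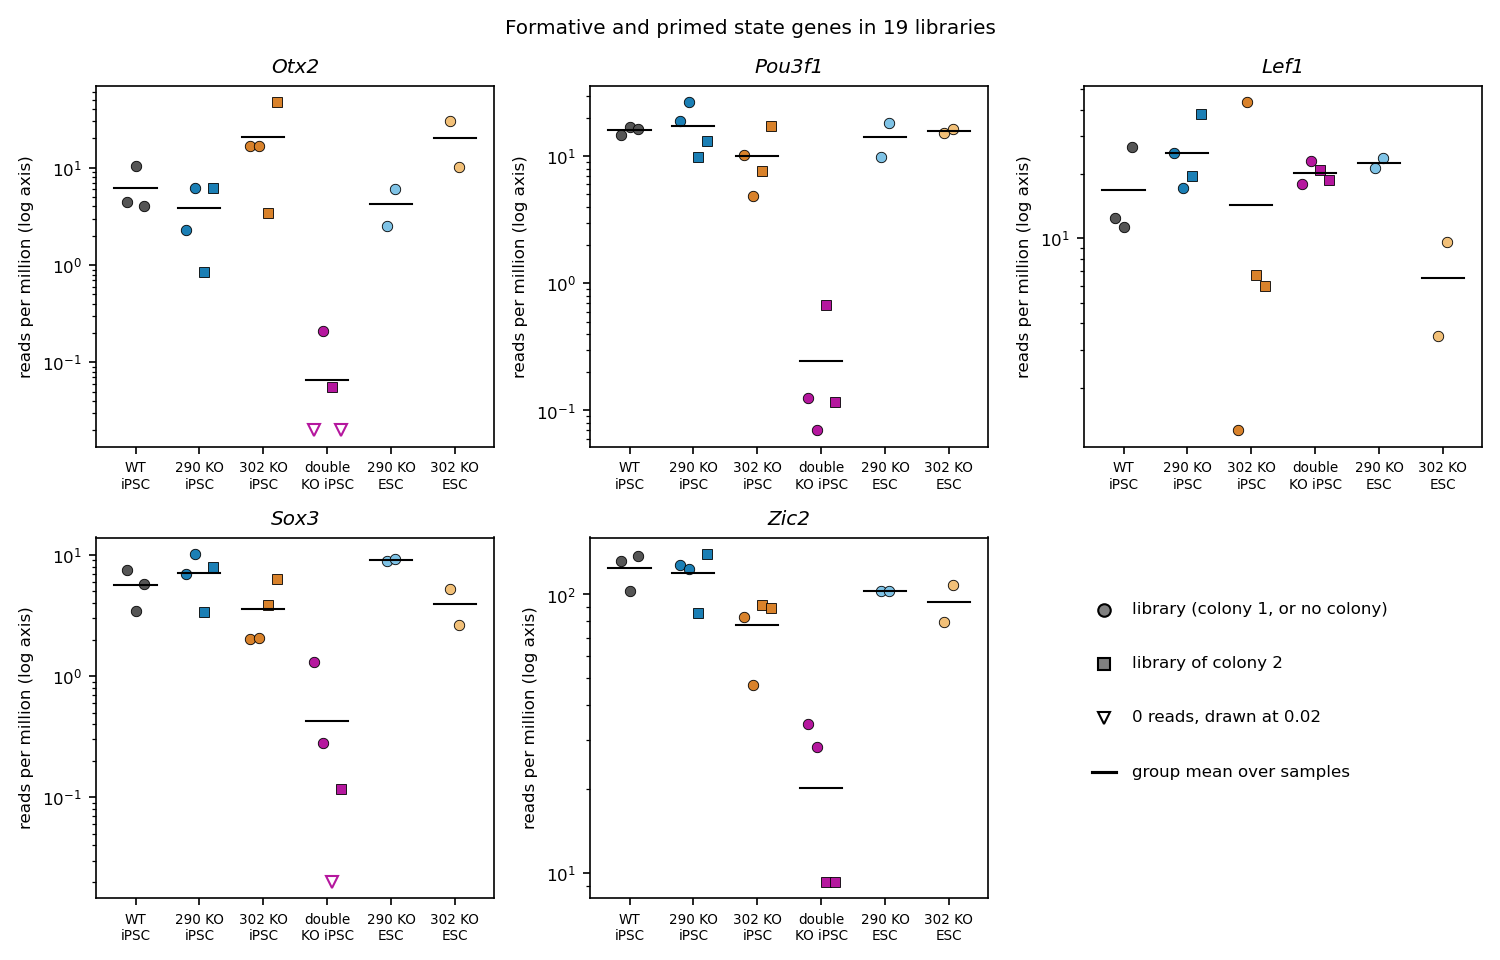
CPM on a log axis for each of 19 libraries in 6 groups, with a line at the group mean over samples and open triangles for libraries with 0 reads. Otx2, Pou3f1, Sox3 and Zic2 are lowest in every double KO library, while the 4 double KO libraries of Lef1 lie between 17.96 and 23.01.

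Otx2 encodes a homeodomain factor that helps drive the exit from the naive state and is later needed for the head region. The gene lies at chr14:48657677-48673819 (GRCm38, − strand). The 3 WT libraries had 4.40, 10.4 and 4.002 CPM. The double KO libraries had 0 and 0.209 CPM in colony 1 and 0.0563 and 0 in colony 2, which is 4 reads among 65243571. All 15 other libraries had 0.841 CPM or more, so the double KO did not overlap with any group. The log2 fold change against WT was −4.90 (SE 0.53, adjusted p = 1.14e-05, limma).

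Among the single KO groups, Otx2 had mean levels of 3.88 and 4.26 CPM with miR-290 deleted and 20.9 and 20.2 with miR-302 deleted, and none of the pairwise tests run among these groups, or between single KO and WT iPSC, passed. The miR-290 KO iPSC had 2.31 and 6.13 CPM in colony 1 and 0.841 and 6.22 in colony 2. The miR-302 KO iPSC had 16.8 and 16.5 CPM in colony 1 and 3.43 and 46.95 in colony 2. The second colony of the miR-302 KO therefore held both the lowest and the highest library of its group. The miR-290 KO ESC had 2.51 and 6.01 CPM and the miR-302 KO ESC 30.1 and 10.3. Both ESC libraries of the miR-302 KO were above both of the miR-290 KO. In order of mean level, miR-302 KO iPSC (20.9 ± 6.03 CPM, SD, n = 2) and miR-302 KO ESC (20.2 ± 14.0, n = 2) came first. WT iPSC (6.25 ± 3.56, n = 3), miR-290 KO ESC (4.26 ± 2.48, n = 2) and miR-290 KO iPSC (3.88 ± 0.49, n = 2) followed, and all neighbours among these 5 groups overlapped in their samples.

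Pou3f1 encodes a POU domain factor, also called Oct6, that is turned on early in the formative state. The gene has coordinates chr4:124656807-124660655 (GRCm38, + strand). The WT libraries had 14.7, 16.9 and 16.5 CPM. The double KO libraries had 0.124 and 0.0697 CPM in colony 1 and 0.675 and 0.117 in colony 2, a total of 17 reads. The highest double KO library was thus far below the lowest library of any other group, which had 4.88 CPM. The log2 fold change against WT was −5.59 (SE 0.43, adjusted p = 5.658e-07, limma).

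Outside the double KO, the Pou3f1 groups were close to each other. The miR-290 KO iPSC had 19.1 and 26.5 CPM in colony 1 and 9.89 and 13.2 in colony 2. The miR-302 KO iPSC had 10.1 and 4.88 CPM in colony 1 and 7.59 and 17.3 in colony 2. In the miR-290 KO every library of colony 1 was above both of colony 2, and in the miR-302 KO the libraries of the 2 colonies interleaved. The miR-290 KO ESC had 9.80 and 18.3 CPM and the miR-302 KO ESC 15.3 and 16.5. Group means ran from 17.2 ± 7.94 CPM in miR-290 KO iPSC to 9.98 ± 3.49 in miR-302 KO iPSC (SD, n = 2 each). Each of these 5 groups overlapped with its neighbour in that order.

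Sox3 encodes a SOXB1 factor, a relative of Sox2 that marks the epiblast and the early neural plate. It lies on the X chromosome at chrX:60891366-60893430 (GRCm38, − strand). The WT libraries had 7.496, 3.47 and 5.80 CPM. The double KO libraries had 1.31 and 0.279 CPM in colony 1 and 0 and 0.117 in colony 2, which is 27 reads. Both colony 1 libraries were above both of colony 2, and all 4 were below the lowest library of any other group, which had 2.00 CPM. The log2 fold change against WT was −3.80 (SE 0.61, adjusted p = 0.000287, limma). It lay between −4.82 and −2.78 with 1 sample left out at a time and stayed called.

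Sox3 did not pass the test between the single KO genotypes in iPSC (1.03, adjusted p = 0.4436, limma) or ESC (1.25, adjusted p = 0.48). The miR-290 KO iPSC had 6.97 and 10.2 CPM in colony 1 and 3.40 and 7.93 in colony 2. The miR-302 KO iPSC had 2.00 and 2.08 CPM in colony 1 and 3.84 and 6.31 in colony 2. The 2 genotypes overlapped in their libraries but not in their colony means. The miR-290 KO ESC had 8.93 and 9.28 CPM and the miR-302 KO ESC 5.22 and 2.66, which did not overlap. By mean level the order was miR-290 KO ESC (9.10 ± 0.25 CPM), miR-290 KO iPSC (7.12 ± 2.06), WT iPSC (5.59 ± 2.02), miR-302 KO ESC (3.94 ± 1.81) and miR-302 KO iPSC (3.56 ± 2.15). Neighbours overlapped in their samples, apart from the first pair.

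Zic2 encodes a zinc finger factor that takes part in the opening of enhancers as cells leave the naive state. It lies at chr14:122475435-122479852 (GRCm38, + strand), on the same chromosome as Otx2. The WT libraries had 132.2, 103.0 and 137.3 CPM. The double KO libraries had 34.1 and 28.2 CPM in colony 1 and 9.29 and 9.27 in colony 2. The 2 libraries of a colony were close together and the 2 colonies differed, and none overlapped with another group. The log2 fold change against WT was −2.81 (SE 0.38, adjusted p = 7.626e-05, limma). It lay between −3.67 and −1.94 with 1 sample left out at a time and stayed called.

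The other groups held between 47.4 and 139.9 CPM of Zic2. The miR-290 KO iPSC had 128.1 and 123.0 CPM in colony 1 and 85.6 and 139.9 in colony 2. The miR-302 KO iPSC had 82.8 and 47.4 CPM in colony 1 and 91.95 and 89.4 in colony 2, where 47.4 is the library that stood apart. The other 3 libraries of that group lay between 82.8 and 91.95 CPM. The miR-290 KO ESC had 103.1 and 103.3 CPM and the miR-302 KO ESC 79.9 and 108.3. WT iPSC had the highest mean (124.2 ± 18.5 CPM, SD, n = 3) and miR-302 KO iPSC the lowest of these 5 groups (77.9 ± 18.1, n = 2). Between them came miR-290 KO iPSC (119.2 ± 9.06), miR-290 KO ESC (103.2 ± 0.13) and miR-302 KO ESC (94.1 ± 20.1). Of neighbours in this order, miR-290 KO iPSC and miR-290 KO ESC did not overlap in their samples and the others did.

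Lef1 encodes a factor of the TCF/LEF family that binds DNA with beta-catenin in Wnt signalling and is raised in formative cells. It spans chr3:131110471-131224356 (GRCm38, + strand). The WT libraries had 12.5, 11.3 and 26.8 CPM. The double KO libraries had 17.96 and 23.01 CPM in colony 1 and 20.9 and 18.8 in colony 2, all inside the WT range. The log2 fold change against WT was 0.40 (SE 0.44, adjusted p = 0.4731, limma). Lef1 was the 1 gene of the 5 whose double KO samples overlapped with WT.

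Lef1 was higher in the double KO than in the miR-302 KO iPSC by 1.54 on the log2 scale (SE 0.48, adjusted p = 0.01948, limma). The miR-302 KO iPSC had 1.26 and 43.3 CPM in colony 1 and 6.71 and 5.97 in colony 2. The 43.3 CPM is the library that stood apart, and 3 of the 4 libraries lay under every double KO library. Without it the difference was 2.78 (adjusted p = 0.003932). The call was lost in 5 alternatives, which were each of the 4 omissions of a colony of either group (adjusted p from 0.05027 to 0.07812) and the fit with every library as a sample (0.06531).

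In the remaining groups, Lef1 had 25.2 and 17.1 CPM in colony 1 and 19.6 and 38.4 in colony 2 of the miR-290 KO iPSC. The miR-290 KO ESC had 21.3 and 23.8 CPM, and the miR-302 KO ESC 3.498 and 9.60. The 2 ESC groups did not overlap. The order of mean levels was miR-290 KO iPSC (25.1 ± 5.53 CPM), miR-290 KO ESC (22.5 ± 1.74), double KO iPSC (20.2 ± 0.44), WT iPSC (16.9 ± 8.60), miR-302 KO iPSC (14.3 ± 11.3) and miR-302 KO ESC (6.55 ± 4.31). SDs are over 2 samples, or 3 for WT. Only miR-290 KO ESC and double KO iPSC, among neighbours in this order, did not overlap in their samples. Without the library that stood apart, miR-302 KO iPSC had 3.8 ± 3.59 CPM and came last, after miR-302 KO ESC.

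Fgf5 encodes a secreted ligand of the fibroblast growth factor family and is a classic mark of the epiblast after implantation. The gene is annotated at chr5:98254184-98277030 (GRCm38, + strand). The authors' deposited table of the double KO against WT lists it with a mean normalized count of 4.19, a log2 fold change of −5.82 and an SE of 2.54. The adjusted p in that deposited table is 0.04105. With no row in the matrix, Fgf5 enters no count or test here.

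The same deposited table lists 4 other genes of the 6, all lower in the double KO. In the authors' deposited table, Otx2 has a log2 fold change of −6.92 (SE 0.96) and Pou3f1 of −6.23 (SE 0.56). Sox3 has −3.97 (SE 0.92) and Zic2 −2.87 (SE 0.41) in the authors' deposited table. Lef1 has no entry there. These tables list only genes with an adjusted p of at most 0.05. None of the 6 has an entry in the authors' deposited tables of the miR-290 KO or the miR-302 KO against WT.

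**Figure D2:**
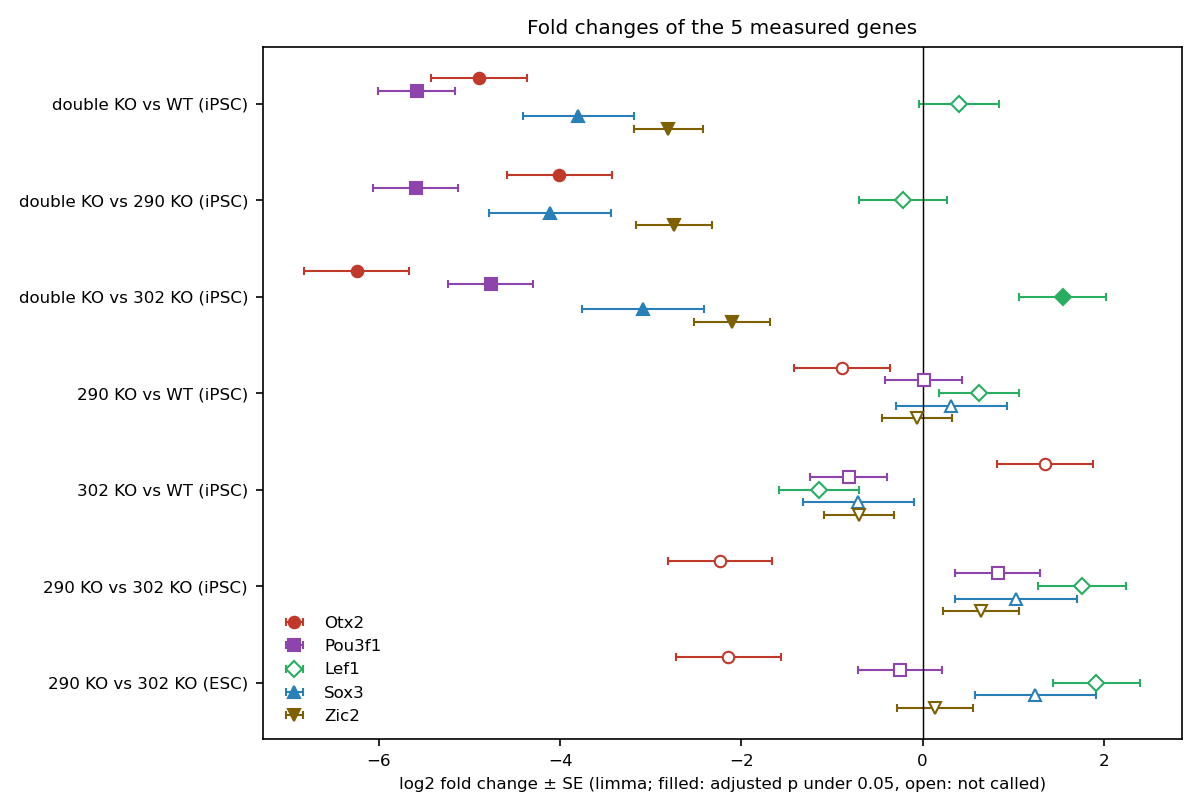
Log2 fold change with its standard error (limma) of Otx2, Pou3f1, Lef1, Sox3 and Zic2 in 7 comparisons, filled where the adjusted p was under 0.05. All Otx2, Pou3f1, Sox3 and Zic2 points against the double KO are filled and negative, and the single KO comparisons are all open.

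Against the single KO iPSC, the same 4 genes were lower in the double KO. Against the miR-290 KO iPSC, 4 of the 5 genes were called lower, where 16.8% of all genes were. The log2 fold changes were −4.01 for Otx2 (SE 0.58, adjusted p = 0.0002124), −5.60 for Pou3f1 (SE 0.47, 2.058e-06), −4.11 for Sox3 (SE 0.67, 0.0005616) and −2.74 for Zic2 (SE 0.42, 0.0003305). Lef1 had −0.22 (SE 0.48, adjusted p = 0.7712). Against the miR-302 KO iPSC, 4 were called lower and 1 higher, where 18.4% of all genes were lower and 28.5% higher. The values were −6.25 for Otx2 (SE 0.58, adjusted p = 3.876e-06), −4.77 for Pou3f1 (SE 0.47, 6.557e-06), −3.09 for Sox3 (SE 0.67, 0.002536) and −2.10 for Zic2 (SE 0.42, 0.001419), all from limma. These comparisons share the double KO samples.

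Neither single KO passed the test for any of the 5 genes against WT iPSC. In miR-290 KO iPSC 0 of 5 were called by limma (0 at an unadjusted p under 0.05), where 1.57% of all genes were. In miR-302 KO iPSC 0 of 5 were called (2 at an unadjusted p under 0.05), where 0.0313% of all genes were. The 2 are Otx2, with a log2 difference of 1.35 (SE 0.53, adjusted p = 0.2949), and Lef1, with −1.14 (SE 0.44, adjusted p = 0.2913). Without the library that stood apart, the Lef1 difference was −2.38 (adjusted p = 0.2963).

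The double KO differed from the sum of the 2 single KO differences for the same 4 genes. This was tested as the double KO minus each single KO plus WT in 1 fit, where a negative value means a level below that sum on the log2 scale. The values were −5.36 for Otx2 (SE 0.78, adjusted p = 0.0004679), −4.78 for Pou3f1 (SE 0.63, 0.0002224), −3.40 for Sox3 (SE 0.91, 0.01846) and −2.04 for Zic2 (SE 0.57, 0.02223). Over all genes 11.7% were called lower in this test. Lef1 had 0.93 (SE 0.65, adjusted p = 0.3249), and 2.16 (adjusted p = 0.09515) without the library that stood apart. With 1 CPM added before the logarithm the values were −3.24 for Otx2, −3.05 for Pou3f1, −1.93 for Sox3 and −2.002 for Zic2, all still called.

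The calls of Sox3 and Zic2 depended on single samples. The Sox3 value ranged from −4.42 to −2.38 with 1 sample left out at a time. Its call was lost without colony 2 of the double KO (−2.38, adjusted p = 0.0614), without colony 1 of the miR-290 KO iPSC (−3.07, 0.06577) and without colony 2 of the miR-302 KO iPSC (−2.80, 0.054). The Zic2 value ranged from −2.90 to −1.18. Its call was lost in 5 alternatives, with adjusted p from 0.0506 to 0.06423. These were the fit with no trend of the prior spread and the omissions of either miR-290 KO iPSC colony, of WT library 2 or of miR-302 KO iPSC colony 2.

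**Figure D3:**
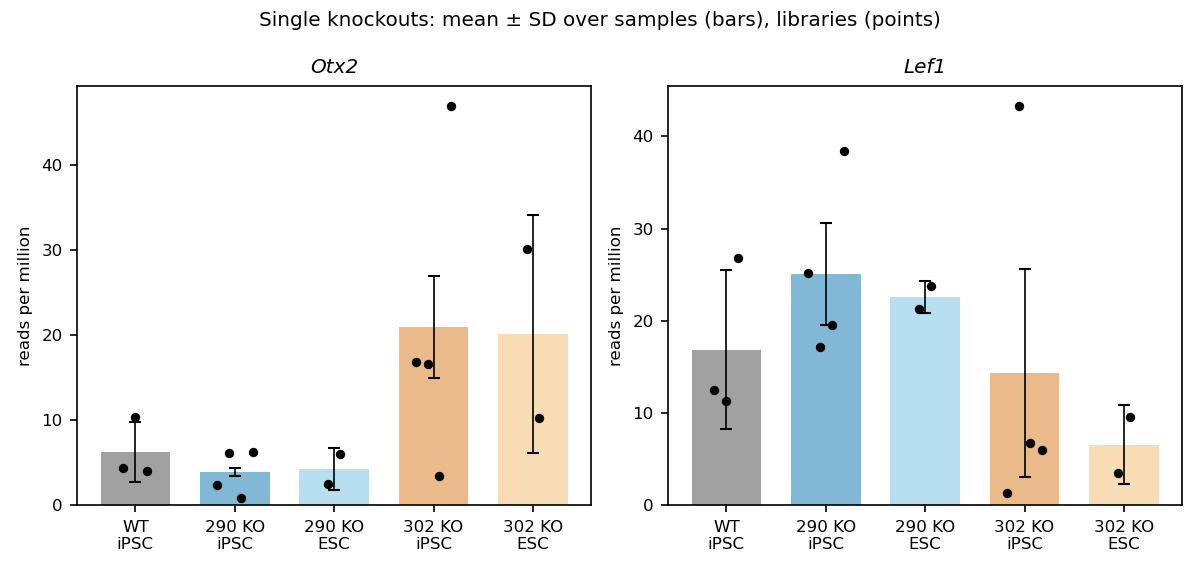
CPM of Otx2 and Lef1 in WT iPSC and the 4 single KO groups, with bars at the mean, error bars of 1 SD over samples and points for libraries. Otx2 bars are 20.9 and 20.2 in the miR-302 KO groups and 3.88 and 4.26 in the miR-290 KO groups, and the Lef1 bar of miR-302 KO iPSC is 14.3 with and 3.8 without its library at 43.3.

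Between the 2 single KO genotypes, the values of Otx2 and Lef1 had opposite signs in both cell types, and none passed the test. In iPSC the miR-290 KO minus miR-302 KO difference was −2.24 for Otx2 (SE 0.58, adjusted p = 0.06258, limma) and 1.76 for Lef1 (SE 0.48, adjusted p = 0.07506). In ESC it was −2.14 for Otx2 (SE 0.58, adjusted p = 0.1364) and 1.92 for Lef1 (SE 0.48, adjusted p = 0.1077). None of the 5 genes was called in either cell type, with 2 at an unadjusted p under 0.05 in each, Otx2 and Lef1. Over all genes 2.25% were called in iPSC and 0.587% in ESC. At an unadjusted p under 0.05 there were 2364 of all 12778 genes in iPSC and 1632 in ESC. In iPSC without the library that stood apart, Lef1 was called, with 2.997 (adjusted p = 0.03732), and Otx2 had −2.24 (adjusted p = 0.05971). Leaving either miR-302 KO ESC library out of the fit brought both iPSC differences past the threshold, with adjusted p from 0.04075 to 0.04321.

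A contrast added after these 2 results were seen averaged the single KO difference over iPSC and ESC. Otx2 was lower in miR-290 KO than in miR-302 KO cells by a log2 difference of −2.19 (SE 0.41, adjusted p = 0.009009, limma). Lef1 was higher by 1.84 (SE 0.34, adjusted p = 0.008955), a call lost with every library as a sample (adjusted p = 0.06625). Without the library that stood apart, Lef1 had 2.46 (adjusted p = 0.008477). Over all genes 7.58% were called in this contrast. Since it was chosen on these values, it is a description of them and not separate evidence. Sox3 had 1.14 (SE 0.48, adjusted p = 0.1679), Zic2 0.39 (SE 0.30, adjusted p = 0.4537) and Pou3f1 0.29 (SE 0.33, adjusted p = 0.6346).

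Reprogrammed cells and ESC of the same genotype were not distinguished by the 5 genes. In miR-290 KO cells 0 of 5 were called (0 at an unadjusted p under 0.05) and in miR-302 KO cells 0 of 5 (0 unadjusted), where 0% of all genes were called in each, by limma. The differences ran from −0.44 for Sox3 to 0.26 for Pou3f1 in the miR-290 KO. In the miR-302 KO they ran from −0.81 for Pou3f1 to 0.25 for Lef1. The single KO difference in iPSC minus that in ESC also gave 0 calls of 5 (0 unadjusted), where 0% of all genes were called (552 genes unadjusted). Its Otx2 value was −0.09 (SE 0.82) and its Lef1 value −0.16 (SE 0.68). Standard errors of the comparisons within a genotype were between 0.42 and 0.67, so small differences were not detectable with these samples. Without the library that stood apart, Lef1 in the miR-302 KO changed sign, to −0.99 (adjusted p = 1).

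Across the 13 samples, the 4 genes that fell in the double KO varied together on the log2 scale. Pearson r was 0.943 for Sox3 and Zic2, 0.884 for Pou3f1 and Zic2, 0.868 for Pou3f1 and Sox3 and 0.84 for Otx2 and Pou3f1. It was 0.708 for Otx2 and Zic2 and 0.672 for Otx2 and Sox3. Lef1 had −0.659 with Otx2, −0.221 with Pou3f1, −0.063 with Zic2 and −0.045 with Sox3. These points share the contrast of the double KO with the other groups, so the values describe that contrast in the first place.

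Genes with the pattern most like each of the 5 were taken by Pearson r over the 13 samples, among 9836 genes with at least 10 CPM in some sample. Their order of levels over the groups follows from that choice and is no separate result. For Otx2 they were Stk31 (0.972), Fmr1nb (0.968) and Gm2694 (0.959). Fmr1nb had 32.5 CPM in WT, 91.0 in miR-302 KO iPSC, 8.11 in miR-290 KO iPSC and 0.0141 in the double KO, the same order as Otx2 over these 4 groups. For Pou3f1 they were Tdgf1 (0.988), Megf11 (0.987) and Mest (0.987). Tdgf1, which encodes the Nodal co-receptor Cripto, had 426 ± 18.2 CPM (SD, n = 3) in WT and 8.13 ± 7.09 (n = 2) in the double KO.

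For Sox3 they were Rab15 (0.976), Camk2b (0.968) and 2900011O08Rik (0.967), and for Zic2 Xylb (0.966), Tnfrsf19 (0.962) and Rimklb (0.962). All 6 had their lowest group mean in the double KO, from 0.539 CPM in Camk2b to 3.97 in Tnfrsf19. They were chosen for likeness to Sox3 or Zic2, which are lowest there, so this follows from the choice. Lef1 had no such close partners, with Lmf1 at 0.85 and Tmem57 at 0.847. The r values of Otx2, Pou3f1, Sox3 and Zic2 include their low level in the double KO, where Lef1 was not low. Tmem57 had 77.4 CPM in the double KO, 75.2 in miR-290 KO iPSC, 50.3 in WT and 41.7 in miR-302 KO iPSC.

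**Figure D4:**
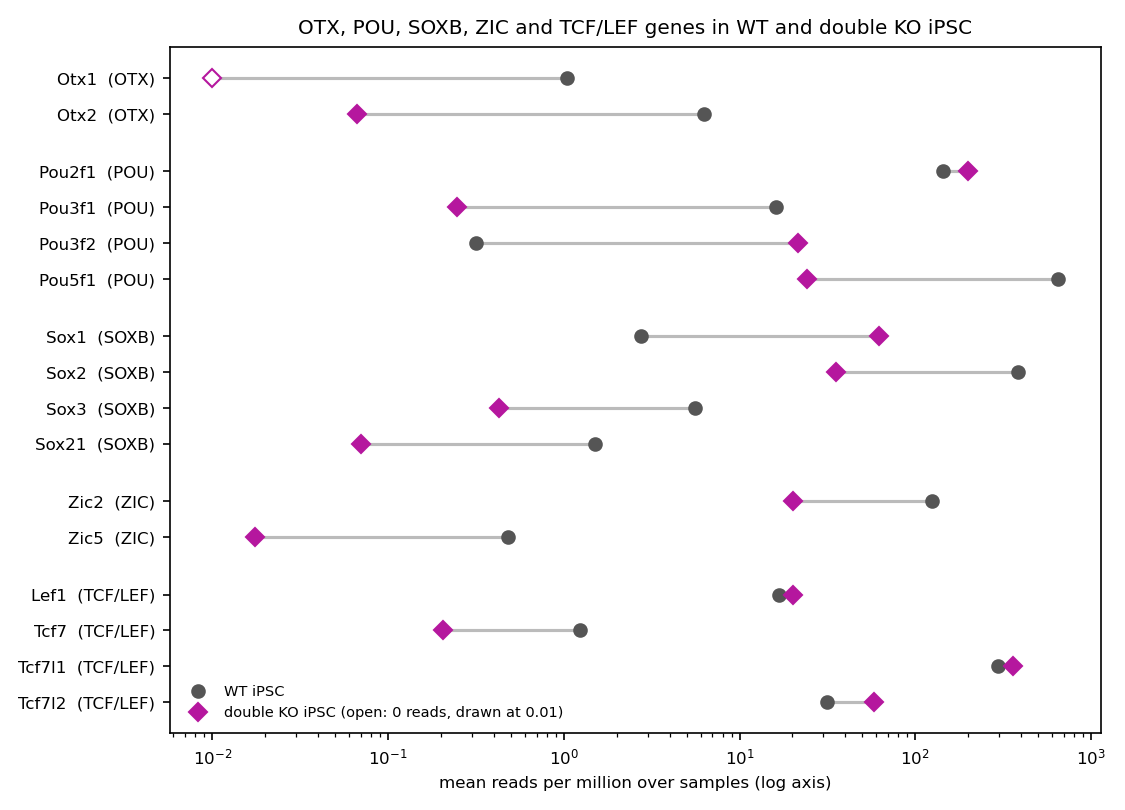
Mean CPM over samples, on a log axis, of 16 genes of the OTX, POU, SOXB, ZIC and TCF/LEF families in WT iPSC (circles) and double KO iPSC (diamonds, open at 0 reads). Pou3f2, Sox1 and Tcf7l2 lie to the right of WT in the double KO, and Otx2, Pou3f1, Sox3 and Zic2 to the left.

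Relatives of the 5 genes moved in both directions in the double KO. Among all genes, 21.5% were called lower and 27.4% higher against WT. Of the OTX family, both fell, as Otx1 went from 1.04 ± 0.47 CPM (SD, n = 3) in WT to 0 reads. That is at least 22.6-fold lower, with a floor of 3 reads over the group. Of 4 POU genes, 2 fell, 1 rose and 1 did not pass. Pou5f1 (Oct4), the core pluripotency factor, fell from 651 ± 127 to 24.3 ± 3.12 CPM (log2 −4.69, adjusted p = 2.425e-07, limma). Pou3f2, a neural relative of Pou3f1, rose from 0.318 ± 0.084 to 21.4 ± 17.4 CPM (5.29, adjusted p = 6.16e-05). Pou2f1, which is broadly expressed, had 143.6 and 200.1 CPM (0.52, adjusted p = 0.05015).

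Of 4 SOXB genes, 3 fell and Sox1, a marker of early neural cells, rose. Sox1 went from 2.75 ± 1.46 to 61.8 ± 1.92 CPM (4.59, adjusted p = 2.142e-06, limma) while Sox2 fell from 383 ± 48.4 to 35.3 ± 10.9 CPM (−3.46, adjusted p = 1.462e-07). Sox21 fell by 3.13 (adjusted p = 0.0001695), from 1.51 CPM to 5 reads over the group. Of the ZIC family, Zic5, a relative of Zic2, fell by 1.97 (adjusted p = 0.03461), from 25 reads over the WT group to 1 read. The ratio of pooled reads was 31.6, with an exact 95% counting interval from 5.17 to 1297. Of 4 TCF/LEF genes, 1 rose and 0 fell, where 27.4% of all genes rose and 21.5% fell. The 1 of 4 that rose is close to the share of all genes. Tcf7l2 went from 31.4 ± 2.85 to 58.0 ± 3.495 CPM (0.93, adjusted p = 0.007539), Tcf7l1, a Wnt pathway repressor, had 297 and 361 CPM (0.33, adjusted p = 0.1349), and Tcf7 had 1.24 and 0.207 CPM (−1.92, adjusted p = 0.1582). None of these family calls changed direction with median-of-ratios scaling.

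In miR-290 KO iPSC, the 1 relative called against WT was Sox1, which was higher by 3.23 (SE 0.41, adjusted p = 0.00499, limma), at 25.1 ± 1.52 CPM (SD, n = 2). In miR-302 KO iPSC none was called. Shares of all genes called against WT were 1.57% with miR-290 deleted and 0.0313% with miR-302 deleted. With so few calls over all genes, the lack of a call with miR-302 deleted says little. Sox1 in miR-302 KO iPSC had 9.16 ± 2.80 CPM. It was above WT by 1.67 on the log2 scale (SE 0.41, unadjusted p = 0.00135, adjusted p = 0.2184, limma). Sox2 differed from WT by −0.05 in the miR-290 KO (adjusted p = 0.9442) and by −0.08 in the miR-302 KO (0.881), and Sox3 by 0.31 (0.8399) and −0.71 (0.5771).

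**Figure D5:**
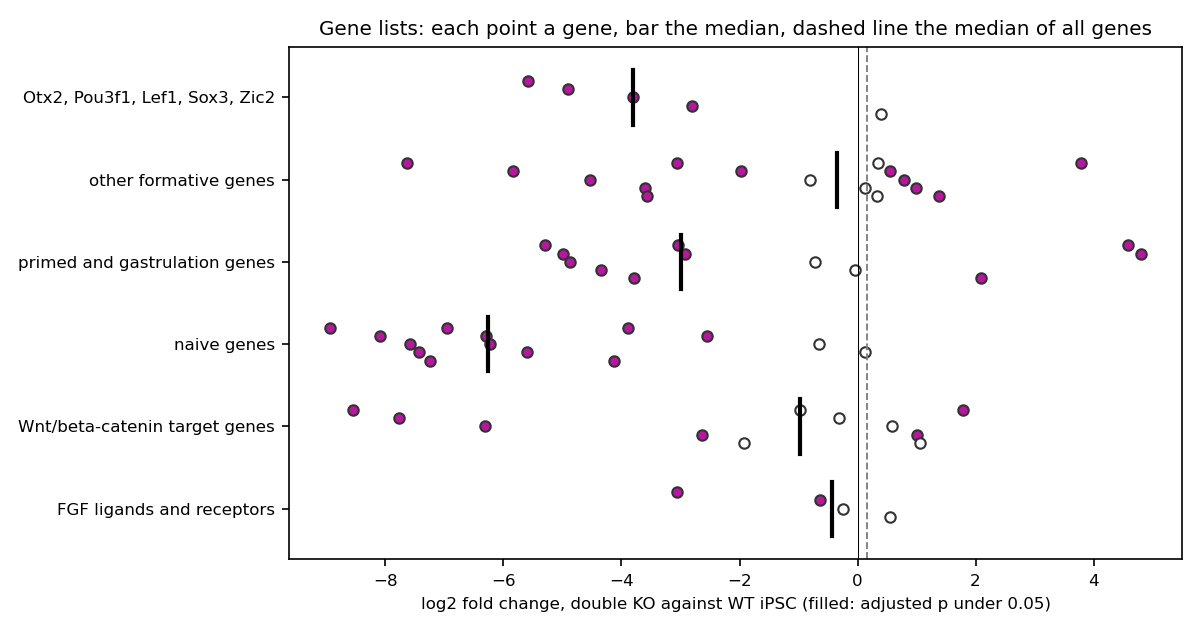
Log2 fold change, double KO against WT iPSC, of each gene of 6 lists, filled where the adjusted p was under 0.05, with a bar at the list median and a dashed line at 0.16, the median of all genes. The naive list has the lowest median (−6.26) and the other formative genes spread on both sides of 0.

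The 5 genes were set beside lists of genes from the same transition. Of 16 other formative genes, 7 fell, 5 rose and 4 did not pass in the double KO, with a median of −0.34. Among all genes 21.5% fell and 27.4% rose, so the 5 of 16 that rose are close to the share of all genes. Foxd3, needed to leave the naive state, went from 28.8 ± 7.54 CPM (SD, n = 3) to 0 reads, at least 625-fold lower with a floor of 3 reads over the group. Lin28b, which blocks let-7 maturation, fell by 5.84 on the log2 scale (adjusted p = 3.83e-08, limma), and Tcf15, a factor of cells that start to leave the naive state, fell by 4.53 (adjusted p = 8.634e-05). Etv4, an effector of FGF signalling, rose by 3.78 (adjusted p = 0.00124). The number that rose was 3 with median-of-ratios scaling, where Etv5 and Tead2 were no longer called and Sox12 was called lower. It was 2 without colony 2 of the double KO and 3 without colony 1, without WT library 1 or without WT library 2.

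Of 12 measured primed and gastrulation genes, 7 fell, 3 rose and 2 did not pass, with a median of −2.99. Among all genes 21.5% fell and 27.4% rose, so the 3 that rose are close to that share. With median-of-ratios scaling Wnt3, 1 of the 3 that rose, was no longer called (1.84, adjusted p = 0.06818, limma). Nodal, the ligand that maintains the epiblast, fell from 117 ± 9.97 to 3.47 ± 2.48 CPM (−5.30, adjusted p = 8.32e-08, limma). Sfrp2, a secreted Wnt modulator, fell by 4.99 (adjusted p = 2.386e-05) and T (Brachyury), the mesoderm factor, by 4.88 (adjusted p = 0.0004817). Sox11, a SOXC factor of neural and progenitor cells, rose from 35.4 ± 2.18 to 974 ± 149 CPM (4.81, adjusted p = 1.497e-07). Sox11 was also the 1 gene of this list called in miR-290 KO iPSC against WT (2.38, adjusted p = 0.005986), and 0 were called in miR-302 KO iPSC. Of all genes, 1.57% and 0.0313% were called in these 2 comparisons.

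Of 14 naive genes, 12 fell, 0 rose and 2 did not pass, with a median of −6.26. Among all genes 21.5% fell and 27.4% rose. With median-of-ratios scaling Tet2, 1 of the 2 that did not pass, was called lower (−0.91, adjusted p = 0.02269, limma). Esrrb fell from 317 ± 48.4 to 0.532 ± 0.065 CPM (−8.94, adjusted p = 7.259e-11, limma) and Nanog from 689 ± 33.8 to 2.34 ± 0.43 CPM (−8.10, adjusted p = 2.495e-10). Dppa3, a maternal factor of naive cells, fell by 7.58 (adjusted p = 7.444e-07). Tcl1, an activator of Akt, fell by 7.43 (adjusted p = 1.28e-08). In either single KO against WT, limma called 0 of the 14 naive genes (4 in each at an unadjusted p under 0.05). The share of all genes called was 1.57% with miR-290 deleted and 0.0313% with miR-302 deleted, so 0 of 14 says little about this list. Unadjusted, 2136 and 1928 of all 12778 genes were under 0.05 in these 2 comparisons.

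Lef1 and Fgf5 belong to signalling pathways whose other genes were also counted. Of 11 measured Wnt target genes, 4 fell, 2 rose and 5 did not pass in the double KO, with a median of −0.97. Among all genes 21.5% fell and 27.4% rose, and whether this list differs from them was not tested. Cdx1 fell from 63.9 ± 19.6 CPM to 2 reads over the group (−8.54, adjusted p = 1.006e-08, limma). Its ratio of pooled reads was 2040, with an exact 95% counting interval from 564 to 16853. Notum fell from 44.0 ± 7.21 to 0.0609 ± 0.037 CPM (−7.77, adjusted p = 2.444e-07). Sp5 fell by 6.32 (adjusted p = 6.404e-08) and Sp8 by 2.63 (adjusted p = 0.0466). The 2 that rose, named after their values were seen, were Bambi (1.80, adjusted p = 0.01211) and Znrf3 (1.01, adjusted p = 0.0323). Their number was 0 without colony 1 of the double KO and with every library as a sample, and 1 without colony 2, WT library 1 or WT library 2. With median-of-ratios scaling Znrf3 was no longer called and Axin2 was called lower.

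Of the FGF ligands and receptors, 4 of 8 were in the matrix, and 2 fell, where 21.5% of all genes fell. Fgf15 went from 1.21 ± 0.85 CPM to 0 reads, at least 26.3-fold lower. Fgf4, the ligand that starts the exit from the naive state, had 276 ± 30.5 CPM in WT and 177 ± 49.8 in the double KO (−0.63, adjusted p = 0.03911, limma). The number that fell was 0 without colony 1 of the double KO and 1 without WT library 1 or WT library 3. Fgfr1 had −0.24 (adjusted p = 0.4254) and Fgfr2 0.54 (adjusted p = 0.6285).

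Markers of other cell types were counted in the double KO against WT, where 21.5% of all genes fell and 27.4% rose. Of 6 measured neural progenitor markers, 3 rose (Pou3f2, Sox1 and Nes) and 3 fell (Olig2, Pax6 and Tubb3), and their sum was 146 and 157 CPM against 48.2 to 90.7 in WT. In miR-290 KO iPSC that sum was 219 and 251 CPM and in miR-302 KO iPSC 101 and 119. It was 111 and 160 CPM in miR-290 KO ESC and 174 and 193 in miR-302 KO ESC. A sum above the WT range was thus not particular to the double KO. Of 12 fibroblast markers listed, only 5 had a row in the matrix, and none of these 5 was at 0 reads. Of the 5, 3 fell and Fbln2 rose, with sums of 5.87 and 39.9 CPM against 12.7 to 16.8 in WT. Fbln2 had 22.2 ± 24.1 CPM (SD, n = 2) in the double KO. Means of the other measured fibroblast markers there ran from 0.0569 CPM in Mmp2 to 0.379 in Col1a1. Of 2 measured markers of extraembryonic endoderm both fell, Gata4 to 0 reads, and of 5 trophoblast markers 3 fell and 2 did not pass. Their part in the levels of the 5 genes was not tested.

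Promoter sequences from RefSeq (GRCm38.p6, 300 bases around the transcription start) were at hand for Otx2, Fgf5 and Lef1. Of these, Otx2 and Lef1 are shown, because their levels ran in opposite directions in the single KO groups. For a gene with several starts in that table the farthest upstream was taken. For Otx2 this stretch lies inside the span annotated for the gene (chr14:48657677-48673819, − strand), downstream of its annotated 5′ end. The Otx2 values below are for this start only. On both strands, CTTTGAT (TCF/LEF), TAATCC (OTX), ATGCAAAT (octamer) and ATTGTT (SOX) had 0 matches in all 3 promoters. Of 27025 promoters, 3.8% hold the first of these motifs, 7.2% the second, 1.8% the octamer and 10.9% the SOX motif. TATAAA, held by 14.2% of promoters, had 1 match in Otx2 and 1 in Fgf5, and GGGCGG, held by 35.9%, 1 in Fgf5 and 1 in Lef1. GC content was 41.7% in the Otx2 promoter, 68.3% in Fgf5 and 67.3% in Lef1, against a median of 52.7%. Capitals mark the matches to TATAAA in Otx2 and to GGGCGG in Lef1.
Otx2 promoter, chr14:48667595-48667894, − strand: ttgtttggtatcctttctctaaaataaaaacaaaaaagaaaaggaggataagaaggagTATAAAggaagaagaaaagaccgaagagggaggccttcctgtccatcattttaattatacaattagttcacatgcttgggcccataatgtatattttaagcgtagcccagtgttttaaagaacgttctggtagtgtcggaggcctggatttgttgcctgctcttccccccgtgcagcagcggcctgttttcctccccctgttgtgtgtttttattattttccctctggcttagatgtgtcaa
Lef1 promoter, chr3:131110047-131110346, + strand: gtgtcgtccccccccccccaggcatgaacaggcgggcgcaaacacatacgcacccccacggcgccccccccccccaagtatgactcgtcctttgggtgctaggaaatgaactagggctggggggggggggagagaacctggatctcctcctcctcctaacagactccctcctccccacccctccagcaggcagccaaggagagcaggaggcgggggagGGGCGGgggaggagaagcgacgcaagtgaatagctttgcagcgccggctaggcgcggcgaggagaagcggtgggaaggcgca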

How the data were processed

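Total RNA was sequenced from the 3′ ends of transcripts (QuantSeq, single end) in 19 libraries, per the labels' protocols. Per the submitters' processing notes, the tools were Trim Galore 0.66, STAR, Salmon 1.4.0, FastQC 0.11.9, MultiQC, limma and DESeq2 1.34.0, and the genome build was mm10 (GRCm38). Their settings, and how reads that map to several genes were counted, are not given in the sources used here.

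The deposited matrix holds log2 values of 12778 genes, shifted by 1 constant per gene, so levels cannot be compared between genes on that scale. Its 6 columns that are no library of this series were not used. The authors' deposited tables hold a signal (the mean normalized count), a log2 fold change with its SE and an adjusted p-value per gene, with only genes at an adjusted p of at most 0.05. From the matrix, whole reads were recovered for 12235 genes (95.8%), with 99.7% of their values whole within 0.02 reads, and scaled to CPM. Without molecular identifiers, the bounds given for few reads describe counting error alone.

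The test was limma 3.58.1 (R 4.3.3) with a trend, on the deposited log2 values of 13 samples in 6 groups, with the 2 libraries of a colony averaged, 7 residual degrees of freedom and Benjamini-Hochberg adjustment over all genes in each of 12 comparisons. It was tested on simulated data. SDs are over the same samples.

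The 6 genes, the lists and the named genes were chosen with earlier results of these data known. Of each list, up to 4 genes with the largest absolute fold change among those called were named, with the family members in the matrix, and for each of the 5 genes the 3 most alike in pattern. Some genes that these rules would name are not reported here. The seed match search, the contrast averaged over cell types, the ratios for each double KO colony and the levels without the library that stood apart were added after the data were seen. Up to 22 alternatives were run per comparison. They covered scaling, the number added before the logarithm, a filter on low values, the unit of replication, a replicate block, sample weights, the trend, the groups in the fit, the library that stood apart and each sample left out in turn.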

Additional observations from a re-analysis of the deposited data

Results flagged for a closer look

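In 2 groups of 4 libraries, 1 library lay far from the other 3, as measured by its gap to the nearest library over the range of the group, on the deposited log2 scale, and set against Dixon's critical value for 4 libraries. Pou3f1 in double KO iPSC colony 2 library 1 had 0.675 CPM against 0.0697 to 0.124 in the other 3, a gap over range of 0.831 in log2 values and 0.91 in CPM. Zic2 in miR-302 KO iPSC colony 1 library 2 had 47.4 CPM against 82.8 to 91.95, a gap over range of 0.848 in log2 values. In CPM it was 0.794, which does not pass. This is the library that stood apart across genes. With 15 such sets of libraries looked at, chance flags about 1 in 20.

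In 4 genes the double KO differed from the sum of the single KO differences (limma). The value was −5.36 for Otx2, −4.78 for Pou3f1, −3.40 for Sox3 and −2.04 for Zic2. The call was lost for Sox3 without any of 3 samples (adjusted p from 0.054 to 0.06577) and for Zic2 in 5 alternatives (adjusted p from 0.0506 to 0.06423).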

How the results depend on the processing

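The 4 calls of Otx2, Pou3f1, Sox3 and Zic2 as lower in the double KO against WT and against each single KO were kept in every alternative run, while the number of all genes called against WT ran from 4495 to 6904. Of counts of calls, 461 stayed within 1.5 times and 23 did not. Of fold changes of the 5 genes, 1273 kept sign and call, 28 changed sign, 5 gained and 14 lost the call. In the replicate block fit, Zic2 in miR-290 KO against WT was 0.0178, 1 FGF gene was lower and 5438 genes were called against 6255. Same-numbered samples did not vary together (r from −0.267 to 0.184), so the numbers were not taken to pair samples. Median-of-ratios scaling gave 3 other formative genes higher, 1 Wnt target higher, and Pou3f1 in miR-290 KO against WT at −0.13. The FGF count was 1 with 1 CPM added and with no trend. With each library as a sample, 0 Wnt targets were higher and 1 gene of the 5 was called in the mean single KO difference. Without miR-302 KO iPSC colony 1 library 2, 1 gene was called between the single KO iPSC, and Lef1 was −0.99 in miR-302 KO iPSC against ESC and 1.08 in the iPSC minus ESC difference.

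With 1 sample left out at a time, 0 to 2 of the 5 genes were called between the single KO iPSC and 2 to 4 against the sum of the single KO differences, 2 to 5 other formative genes were higher, 0 to 2 FGF genes lower and 0 to 2 Wnt targets higher. In miR-290 KO against WT, Pou3f1 ran from −0.47 to 0.49, Sox3 from −0.0197 to 0.65 and Zic2 from −0.20 to 0.0294. In miR-290 KO iPSC against ESC, Otx2 ran from −0.97 to 0.24, Pou3f1 from −0.22 to 0.74 and Lef1 from −0.11 to 0.30. In miR-302 KO iPSC against ESC, Otx2 ran from −1.03 to 0.49, Lef1 from −0.46 to 0.97 and Sox3 from −0.83 to 0.38. Between the ESC genotypes, Pou3f1 ran from −0.69 to 0.19 and Zic2 from −0.0853 to 0.36. The iPSC minus ESC difference ran from −0.85 to 0.67 for Otx2, −0.87 to 0.56 for Lef1 and −0.82 to 0.39 for Sox3. None of the values that changed sign was called. The causes were not tested.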
